A study of Mus musculus with 8 samples.

Results

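The D cyclins, their kinase partners CDK4 and CDK6, the CDK inhibitors Cdkn1b, Cdkn1c and Cdkn2c, and the pocket proteins Rb1 and Rbl1 were examined in cultured mouse neural stem cells (NSCs). Members were found by gene symbol, and every probe set annotated to exactly 1 of these symbols was taken. The 10 genes had 29 probe sets of the 45101 on the array. Of these, 20 reached a signal of at least 50 on at least 2 of the 8 arrays and entered the tests, and 9 did not. Every gene kept at least 1 probe set.

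In G1 phase, D-type cyclins are made in response to growth factors and bind CDK4 or CDK6. The active kinases phosphorylate the retinoblastoma family of pocket proteins, which then release E2F transcription factors, and genes for S phase are switched on. INK4 proteins such as p18 (Cdkn2c) bind CDK4 and CDK6 directly, whereas the CIP/KIP proteins p27 (Cdkn1b) and p57 (Cdkn1c) act on cyclin-CDK complexes, and in the neural stem cell niche these inhibitors are known as brakes on cell division.

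The arrays compared secondary neurospheres, floating clusters grown from dissociated NSCs, in 2 media and at 2 times, with 2 arrays in each of the 4 groups. MHM + GF was MHM, a serum-free culture medium, with epidermal growth factor and basic fibroblast growth factor, and the cells were taken after 3 or 7 days. In the rcCHIL3 groups the cells were grown for 3 or 7 days with recombinant CHIL3, a chitinase-like protein that the labels call ECF-L, in MHM conditioned by human HEK293T cells made to secrete it. Labels give the source of the NSCs as adult mouse brain. The study's methods describe neurospheres from the forebrain striatum of embryos or adults. Among several sources of tissue they list young adult wild-type C57BL/6J mice and embryos of the ICR strain. Neither labels nor methods tie a strain, sex or exact age to these arrays. In its neurosphere assays the study names rcCHIL3 and rcCHIL3 + GF as separate media, and its methods name the array medium rcCHIL3 alone. Whether that medium held added growth factors was not stated outright. Effects of CHIL3, of the conditioning by HEK293T cells and of any difference in growth factors therefore cannot be told apart. Both arrays of a group came from independent experiments according to the methods, and no label ties them to separate animals, so p-values measure the spread between these samples.

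Signals are given on the scale of an array average of 100. Differences are log2 changes of signal + 20, with the standard error of the fit, from limma with Benjamini-Hochberg adjustment over 15679 probe sets, and were called at an adjusted p under 0.05. Folds are ratios of the 2 group mean signals. Each gene was called at its brightest probe set past the filter. The 2 arrays of a group correlated at r = 0.992 to 0.994 across probe sets, and no array stood apart. All 7 neural stem and progenitor markers with a probe set of their own passed the filter, Sox2 at 1685 to 2096 on every array. Nes, the intermediate filament nestin, read 187 and 186 in MHM + GF at 3 days and 8.68 to 32.2 on the other 6 arrays. None of the 5 microglial or the 4 endothelial markers passed.

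With rcCHIL3 at 3 days, 9 of the 10 genes were lower than in MHM + GF and 1, Rb1, was higher. Of all probe sets tested, 22.5% were called lower and 27.7% higher in that comparison. The 10 genes were chosen with earlier results of these data known, so the shares describe and are no test. The median log2 change over the 10 genes was -0.94, against 0.03 over all probe sets. At 7 days, 7 genes were lower and 2, Cdkn1c and Rb1, were higher, against 22.7% and 21.3% of all probe sets, and the median was -0.56 against -0.01. The 7-day count of higher genes lies near that share and is no result about the 10 genes. The comparisons at 3 and 7 days share no array. In bulk RNA, fewer cells of a type and less RNA per cell cannot be told apart.

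Some of these probe sets entered the tests only through the group in which they were high. A Ccnd1 probe set (1417419_at) and a Cdk6 probe set (1455287_at) reached the filter in MHM + GF at 3 days only, and the probe sets used for Cdk6 and Rbl1 reached it in MHM + GF only. Without any filter, 21 of all 29 probe sets were lower at 3 days and the other 8 did not pass, Rb1 among them (adjusted p = 0.0631), where 9.29% of the 45037 probe sets then tested were lower and 4502 of them were higher. At 7 days 18 of the 29 were lower and 2 were higher, against 7.90% and 7.31%. Of the 29, 20 had passed the filter, against 15679 of the 45037, and several of the 29 measure the same gene. These shares are therefore not of like sets. Of the 9 dim probe sets alone, 2 were lower at 3 days and 3 at 7 days, and the rest did not pass.

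**Figure D1:**
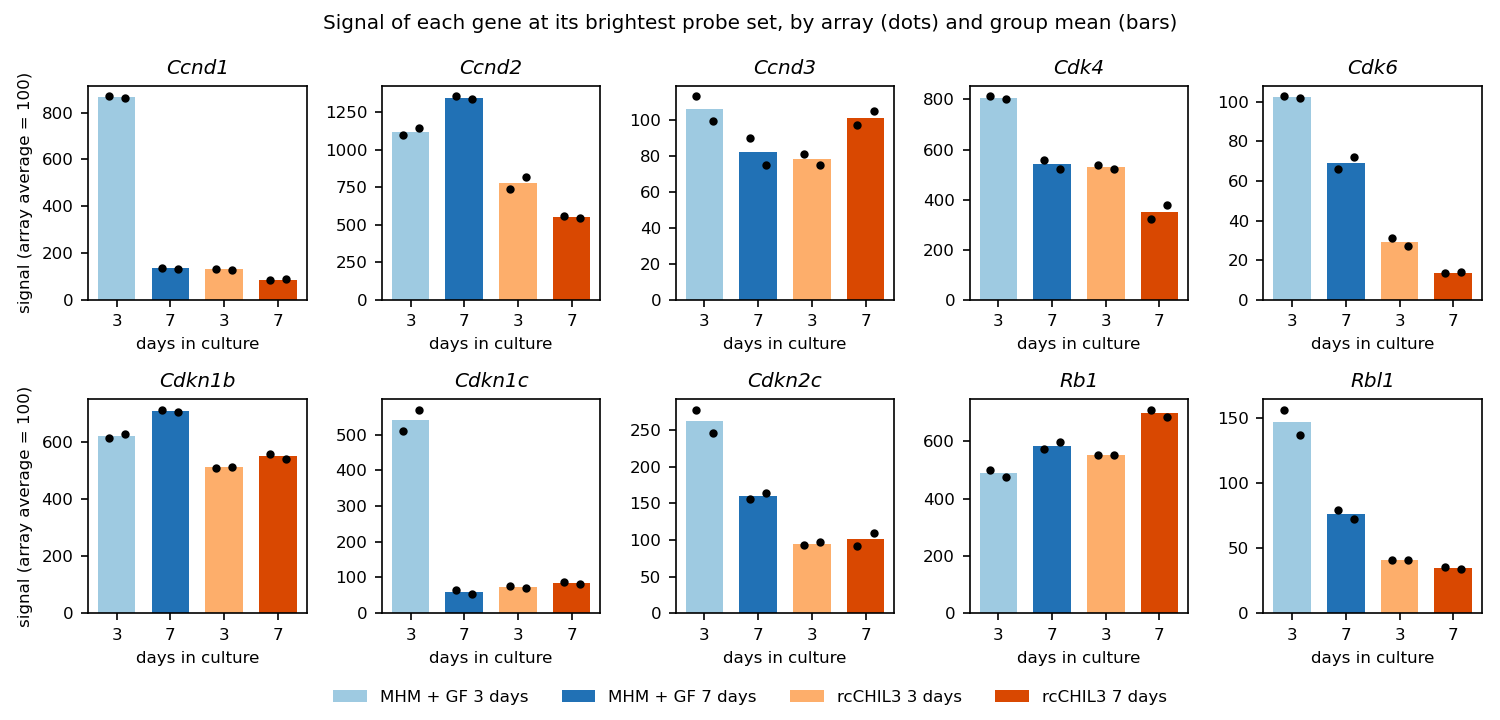
Signal on each array (dots) and group mean (bars) of the 10 genes at their brightest probe set, on a scale of an array average of 100, by medium and days in culture. Ccnd1 and Cdkn1c were high in MHM + GF at 3 days alone (862 to 871 and 512 to 570.4), Ccnd2 was highest in MHM + GF at 7 days, and Cdk6 was lowest with rcCHIL3 at 7 days (13.2 and 13.9).

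Among the D cyclins, Ccnd1, the cyclin most directly induced by mitogens, had the largest drop. Its signals were 871 and 862 in MHM + GF at 3 days, 135 and 132 in MHM + GF at 7 days, 133 and 128 with rcCHIL3 at 3 days, and 82.8 and 89.2 with rcCHIL3 at 7 days. The 3-day MHM + GF arrays stood far above the other 6, the 7-day rcCHIL3 arrays stood below all others, and the 2 middle groups lay side by side. Ccnd1 was 6.63-fold lower with rcCHIL3 at 3 days (log2 change -2.56 ± 0.07, adjusted p = 6.67e-10). At 7 days it was 1.55-fold lower (-0.53 ± 0.07, adjusted p = 0.000154). All 3 Ccnd1 probe sets were lower at 3 days, with log2 changes of -2.56 to -2.34. The dimmest of them passed the filter through MHM + GF at 3 days alone and is no separate support. At 7 days 2 of the 3 were lower, and the dimmest (1417419_at) read 20.1 and 12.4 in MHM + GF against 15.2 and 17.1 with rcCHIL3, a log2 change of 0.00 ± 0.14. Averaged over the 3 probe sets, the 7-day change was -0.30, still past the threshold.

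Ccnd2, a D cyclin of neural progenitors, had another pattern. Its signals were 1095 and 1145 in MHM + GF at 3 days, 1357 and 1338 in MHM + GF at 7 days, 741 and 818 with rcCHIL3 at 3 days, and 560.5 and 543 with rcCHIL3 at 7 days. No groups overlapped, and the order of the 4 groups was therefore MHM + GF at 7 days, MHM + GF at 3 days, rcCHIL3 at 3 days and rcCHIL3 at 7 days, each step past the threshold. The change with rcCHIL3 was -0.51 ± 0.06 at 3 days (adjusted p = 4.86e-05) and -1.26 ± 0.06 at 7 days (adjusted p = 1.02e-07). The 6 Ccnd2 probe sets past the filter were all lower on both days, with changes of -0.54 to -0.49 at 3 days and -1.72 to -1.26 at 7 days. A dim probe set of Ccnd2 (1416124_at) stayed at or under 27.9 on every array.

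Ccnd3, the third D cyclin, changed little. Its signals were 113 and 99.2 in MHM + GF at 3 days, 89.7 and 75.1 in MHM + GF at 7 days, 81.1 and 74.9 with rcCHIL3 at 3 days, and 97.3 and 105 with rcCHIL3 at 7 days. At 3 days the rcCHIL3 arrays lay below the MHM + GF arrays, and at 7 days they lay above them. The 3-day change was -0.36 ± 0.10 (adjusted p = 0.0122), and the 7-day change of 0.25 ± 0.10 did not pass (adjusted p = 0.0741). The 3-day call rested on single arrays, since without MHM + GF replicate 1 the adjusted p was 0.0938 and without rcCHIL3 replicate 2 it was 0.0819. Without the first MHM + GF array at 7 days, the 7-day change was 0.35 and passed (adjusted p = 0.0398). A dim Ccnd3 probe set (1438805_at) did not follow the bright one, with signals of 5.47 and 6.06, 21.3 and 19.1, 4.84 and 2.47, and 8.19 and 7.12 in the same order of groups.

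The 2 kinases that D cyclins activate were both lower with rcCHIL3 on both days. Cdk4 signals were 813 and 802 in MHM + GF at 3 days, 559.8 and 521 in MHM + GF at 7 days, 537 and 521 with rcCHIL3 at 3 days, and 321 and 377 with rcCHIL3 at 7 days. The 2 middle groups overlapped, and the highest and lowest groups stood clear of them. Cdk4 changed with rcCHIL3 by -0.59 ± 0.08 at 3 days (adjusted p = 7.44e-05) and by -0.61 ± 0.08 at 7 days (adjusted p = 0.000108). The suffix of the brightest Cdk4 probe set (1422441_x_at) marks probes that may also match other transcripts. The 3 Cdk4 probe sets were all lower, with changes of -0.64 to -0.53 at 3 days and -0.61 to -0.43 at 7 days.

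Cdk6, the alternative partner of the D cyclins, had a larger drop. Its signals were 103 and 102 in MHM + GF at 3 days, 66.3 and 72.1 in MHM + GF at 7 days, 31.1 and 27.3 with rcCHIL3 at 3 days, and 13.2 and 13.9 with rcCHIL3 at 7 days. The 4 groups did not overlap, and every rcCHIL3 array lay below every MHM + GF array. Cdk6 was 3.51-fold lower with rcCHIL3 at 3 days (-1.32 ± 0.10, adjusted p = 5.69e-07), and the change at 7 days was -1.41 ± 0.10 (adjusted p = 8.61e-07). The 7-day rcCHIL3 signals lay near the array medians of 13.3 to 15.0, so no fold is given for that day. At such low signals the offset of 20 matters, and with a floor of 10 in its place the 7-day change was -2.35. The second Cdk6 probe set past the filter (1455287_at) was also lower on both days, by less, with changes of -0.84 ± 0.12 and -0.43 ± 0.12, and its 7-day means were 36.8 and 22.0.

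All 3 CDK inhibitors were lower with rcCHIL3 at 3 days. Cdkn1b, which encodes p27, changed least, with signals of 615 and 631 in MHM + GF at 3 days, 715 and 706 in MHM + GF at 7 days, 511 and 515 with rcCHIL3 at 3 days, and 559 and 543 with rcCHIL3 at 7 days. All rcCHIL3 arrays read lower than all MHM + GF arrays. The change was -0.27 ± 0.06 at 3 days (adjusted p = 0.00252) and -0.36 ± 0.06 at 7 days (adjusted p = 0.000585). On the deposited scale, without rescaling of the arrays, the 7-day change was -0.27 and did not pass (adjusted p = 0.0901).

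Cdkn1c, which encodes p57, a factor tied to quiescence of adult NSCs, was at 512 and 570.4 in MHM + GF at 3 days, 64.4 and 53.9 in MHM + GF at 7 days, 76.9 and 70.5 with rcCHIL3 at 3 days, and 86.4 and 82 with rcCHIL3 at 7 days. Only the 3-day MHM + GF arrays were high, as for Ccnd1. Cdkn1c was 7.34-fold lower with rcCHIL3 at 3 days (-2.58 ± 0.10, adjusted p = 3.01e-09). At 7 days it was higher with rcCHIL3, by 0.40 ± 0.10 (adjusted p = 0.00609), and without the second MHM + GF array of that day the change was 0.30 and did not pass (adjusted p = 0.0511). The gene has a single probe set on the array.

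Cdkn2c, which encodes the INK4 inhibitor p18, was at 278 and 246 in MHM + GF at 3 days, 156 and 165 in MHM + GF at 7 days, 92.8 and 97.2 with rcCHIL3 at 3 days, and 91.7 and 109.8 with rcCHIL3 at 7 days. The 2 rcCHIL3 groups overlapped and lay below both MHM + GF groups. The change with rcCHIL3 was -1.29 ± 0.10 at 3 days (adjusted p = 6.91e-07) and -0.58 ± 0.10 at 7 days (adjusted p = 0.000613).

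The 2 pocket proteins went in opposite directions. Rb1, the retinoblastoma protein that D cyclin kinases phosphorylate, was at 500.5 and 475 in MHM + GF at 3 days, 572 and 597 in MHM + GF at 7 days, 553 and 554 with rcCHIL3 at 3 days, and 710.4 and 684 with rcCHIL3 at 7 days. Both rcCHIL3 groups lay above the MHM + GF group of the same day. The change was 0.18 ± 0.06 at 3 days (adjusted p = 0.0332) and 0.25 ± 0.06 at 7 days (adjusted p = 0.00761). The 3-day call was lost in 9 of 22 alternative settings, among them the deposited scale (0.11, adjusted p = 0.548) and leaving out MHM + GF replicate 2 (0.14, adjusted p = 0.168) or rcCHIL3 replicate 1 or 2 (adjusted p = 0.114 and 0.113). Without rcCHIL3 replicate 1 at 7 days, the 7-day adjusted p was 0.0508.

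Rbl1, the related pocket protein p107, whose transcription E2F factors are known to control, was at 157 and 137 in MHM + GF at 3 days, 79.6 and 72.7 in MHM + GF at 7 days, 41.3 and 41.2 with rcCHIL3 at 3 days, and 35.9 and 33.9 with rcCHIL3 at 7 days. The order of the groups was the same as for Cdk6, with the last step, between the 2 rcCHIL3 groups, not past the threshold (adjusted p = 0.229). Rbl1 was 3.57-fold lower with rcCHIL3 at 3 days (-1.45 ± 0.10, adjusted p = 2.88e-07) and changed by -0.81 ± 0.10 at 7 days (adjusted p = 6.39e-05). The other 3 Rbl1 probe sets stayed at or under 34 on every array.

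Promoter sequence was at hand from RefSeq (GRCm38.p6, 250 bases before to 50 after the start site) for 6 of the 10 genes, with 8 promoters. Both strands were searched for E2F (TTTGGCGC, TTTCCCGC, TTTCGCGC or TTTGCCGC), the cAMP response element (TGACGTCA), AP1 (TGANTCA), FOXO (GTAAACA) and the E-box (CACGTG). The promoters of Rbl1 and Cdk4 are shown, the first as the one window with an E2F match and the second as the one with the most E-boxes, with matches printed in capitals. Rbl1 lies on the minus strand at chr2:157204485-157204784 and its E2F match begins at -18 from the start site, and Cdk4 lies on the plus strand at chr10:127063285-127063584 with E-boxes beginning at -172, -118, -98 and -11.
Rbl1: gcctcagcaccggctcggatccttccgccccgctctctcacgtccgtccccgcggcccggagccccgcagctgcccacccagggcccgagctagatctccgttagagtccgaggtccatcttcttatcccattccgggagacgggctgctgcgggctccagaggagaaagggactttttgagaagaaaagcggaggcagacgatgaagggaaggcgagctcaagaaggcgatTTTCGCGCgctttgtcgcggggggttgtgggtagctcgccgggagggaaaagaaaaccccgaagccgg
Cdk4: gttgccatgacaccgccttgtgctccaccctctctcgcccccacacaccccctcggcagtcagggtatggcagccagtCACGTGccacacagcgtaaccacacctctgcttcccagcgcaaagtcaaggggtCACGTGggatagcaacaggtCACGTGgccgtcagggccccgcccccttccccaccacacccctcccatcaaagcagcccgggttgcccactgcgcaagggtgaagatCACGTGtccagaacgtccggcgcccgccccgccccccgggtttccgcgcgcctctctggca
An E2F match was present in 2.26% of all 32851 promoters of this length and an E-box in 7.15%. Cdk6 held an E-box at -220 (chr5:3343643-3343942, plus strand), a Cdkn2c promoter held another at 35, and a Ccnd3 promoter held a FOXO match at -243. The cAMP response element (1.79% of promoters) and AP1 (7.81%) were not matched in any of the 8 windows, and FOXO was present in 3.65%. A match of letters is a description and no measure of binding.

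Over time in MHM + GF, from 3 to 7 days, 3 genes rose and 7 fell, against 31.1% and 26.0% of all probe sets. The count that rose lies near its share. Cdkn1c fell by 2.83 ± 0.10 on the log2 scale, 9.15-fold, and Ccnd1 fell by 2.53 ± 0.07. Rbl1, Cdkn2c, Cdk4, Cdk6 and Ccnd3 fell by 0.30 to 0.80. Ccnd2 rose by 0.26 ± 0.06, with 5 of its 6 probe sets higher, by 0.40 when all 6 were averaged, while Rb1 rose by 0.25 ± 0.06 and Cdkn1b by 0.18 ± 0.06 (adjusted p = 0.0188). The Ccnd2, Rb1 and Cdkn1b calls did not pass on the deposited scale, the Cdkn1b call did not pass without replicate 1 of either day (adjusted p = 0.0866 and 0.0661), and the Ccnd3 call did not pass without 3-day replicate 1 or 7-day replicate 2 (-0.22 and -0.20).

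Over the same days in rcCHIL3, 2 genes rose and 4 fell, against 18.0% and 17.9% of all probe sets, and 4 did not pass. Here too the count that rose lies near its share. Cdk4, Cdk6, Ccnd1 and Ccnd2 fell by 0.58, 0.55, 0.51 and 0.48. For Cdk6 this drop ranged from 0.32 with an offset of 50 to 1.1 with a floor of 10. Rb1 rose by 0.32 ± 0.06 and Ccnd3 by 0.31 ± 0.10, the latter not past the threshold when any of the 4 rcCHIL3 arrays was left out (adjusted p = 0.0681 to 0.185). Rbl1 (-0.16), Cdkn2c (0.07), Cdkn1b (0.10) and Cdkn1c (0.15) did not pass.

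**Figure D2:**
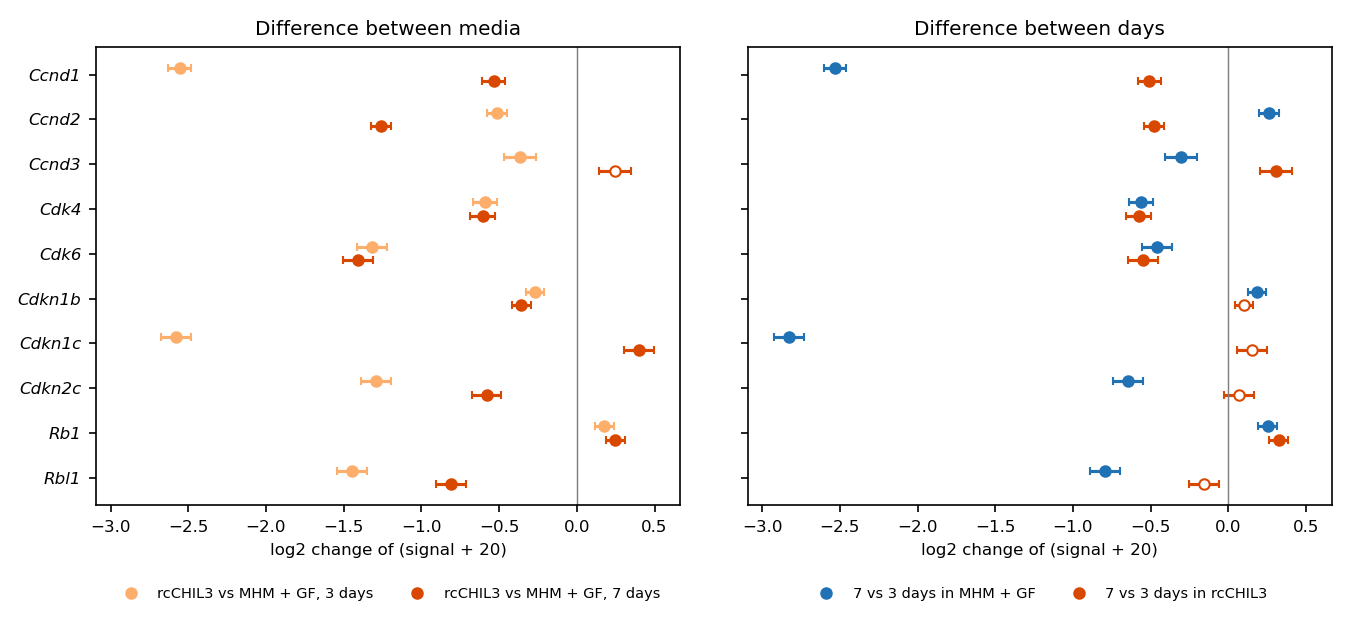
Log2 change of signal + 20 (horizontal axis) of each gene at its brightest probe set, with the standard error of the limma fit, between media on the same day (left) and between days in the same medium (right). Filled points passed an adjusted p of 0.05, open points did not. Ccnd1 and Cdkn1c dropped most with rcCHIL3 at 3 days (-2.56 and -2.58) and over time in MHM + GF (-2.53 and -2.83), comparisons that share the 3-day MHM + GF arrays.

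Whether the rcCHIL3 difference itself changed between 3 and 7 days was tested as an interaction, 7-day difference minus 3-day difference. It was higher at 7 days for 5 genes and lower for 1, against 18.7% and 22.7% of all probe sets. Cdkn1c (2.98 ± 0.14) and Ccnd1 (2.02 ± 0.10) had the largest values, followed by Cdkn2c (0.71 ± 0.14), Rbl1 (0.64 ± 0.14) and Ccnd3 (0.61 ± 0.15). Ccnd2 was the opposite case, with -0.74 ± 0.09, since its difference widened. Cdk4 (-0.01 ± 0.11), Cdk6 (-0.09 ± 0.14), Cdkn1b (-0.09 ± 0.08) and Rb1 (0.07 ± 0.09) did not pass. For Cdk6 the estimate was -0.54 with a floor of 10 (adjusted p = 0.0517).

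**Figure D3:**
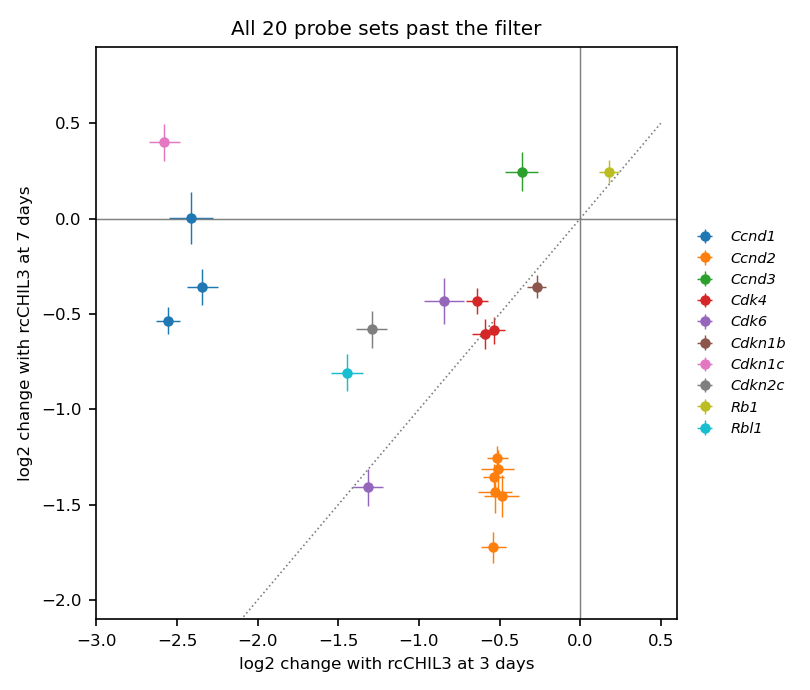
Log2 change with rcCHIL3 at 3 days (horizontal) against 7 days (vertical) for the 20 probe sets past the filter, with standard errors. On the dotted line both days have the same change. The 6 Ccnd2 probe sets lie together below the line, the 3 Ccnd1 probe sets and Cdkn1c lie far above it, and the 3 Cdk4 probe sets lie near it.

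Levels at 3 days with rcCHIL3 were also set beside MHM + GF at 7 days, 2 groups that differ in medium and in days. By limma 5 of the 10 genes were lower and 0 higher, against 23.5% and 22.7% of all probe sets, and at an unadjusted p under 0.05 Cdkn1c was the 1 gene higher. Ccnd2 (-0.78), Cdk6 (-0.86), Cdkn1b (-0.45), Cdkn2c (-0.65) and Rbl1 (-0.65) were lower. Ccnd1 (-0.03 ± 0.07, adjusted p = 0.798), Cdk4 (-0.03 ± 0.08, adjusted p = 0.793), Ccnd3 (-0.06 ± 0.10) and Rb1 (-0.08 ± 0.06) did not pass, and neither did Cdkn1c (0.25 ± 0.10, adjusted p = 0.0554). A Cdk4 probe set (1422440_at) was higher with rcCHIL3 at 3 days, at 351 and 362 against 295 and 298 (0.25 ± 0.07, adjusted p = 0.0103).

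Other genes of G1 and S phase entry were taken from a list of 30, of which 22 could be tested. The list too was chosen with earlier results of these data known. At 3 days 13 were lower with rcCHIL3, 1 was higher and 8 did not pass, beside 22.5% lower and 27.7% higher over all probe sets, with a median of -0.35 against 0.03. At 7 days 6 were lower, 3 were higher and 13 did not pass, beside 22.7% and 21.3%, with a median of -0.08 against -0.01, and these 7-day counts lie near those of all probe sets. The same shares apply to the role groups that follow, which hold few genes each. Of the 22, Cdkn3 and E2f8 entered the tests through MHM + GF at 3 days alone, the group where they were high. Without any filter, and with all 30 genes at 1 probe set each, 17 were lower and 1 higher at 3 days, against 9.29% lower and 4502 of 45037 probe sets higher, and 8 were lower and 1 higher at 7 days, against 7.90% and 7.31%. Of the 30 genes 22 had passed the filter, against 15679 of the 45037 probe sets, so these shares too are not of like sets. Among the genes under the filter were Ccne1 and Ccne2, the E cyclins that activate CDK2, and E2f1 and E2f2.

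Of the cyclins E and A with CDK2, both genes that could be tested were lower at 3 days (22.5% of all probe sets). Ccna2, the S phase cyclin, was at 490.3 and 519.5 in MHM + GF and 64.5 and 62.6 with rcCHIL3 at 3 days (-2.65 ± 0.09), and at 104 and 98.4 against 19.4 and 21.5 at 7 days (-1.59 ± 0.09). The kinase Cdk2 was lower at 3 days (-0.50 ± 0.14), and its 7-day value of 0.30 ± 0.14 did not pass.

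The other CDK inhibitors gave 3 lower of 4 at 3 days (22.5% of all probe sets), Cdkn3 among them, and 2 higher at 7 days (21.3%), with the other 2 not past the threshold. Without any filter, 1 of the 5 on the list was higher at 7 days, against 7.31% of all probe sets. Cdkn1a, which encodes the CIP/KIP inhibitor p21, was at 1113 and 1119.5 in MHM + GF and 1205 and 1288 with rcCHIL3 at 3 days (0.16 ± 0.09, adjusted p = 0.168). At 7 days it was higher with rcCHIL3, at 1576 and 1709 against 753 and 933 (0.95 ± 0.09, adjusted p = 9.99e-06). Cdkn2d, the INK4 inhibitor p19, was lower at 3 days (-0.56 ± 0.08) and at 0.09 ± 0.08 at 7 days, which did not pass. Cdkn3, a phosphatase that acts on CDKs, was at 70.3 and 74.9 in MHM + GF at 3 days, which alone brought it past the filter, and at or under 8.57 on the other 6 arrays. Of the INK4 and CIP/KIP genes outside the 10, Cdkn1a had the largest rise with rcCHIL3 at 7 days.

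Of the 7 tested genes for the remaining pocket protein and E2F factors, 4 were lower and 1 higher at 3 days (22.5% and 27.7% of all probe sets), and 3 were lower and 1 higher at 7 days (22.7% and 21.3%). E2f8, a repressor-type E2F, was at 76.7 and 89.2 in MHM + GF and 14.2 and 18.6 with rcCHIL3 at 3 days (-1.5 ± 0.11). It passed the filter through the first of these groups alone. E2f8 was also called lower at 7 days (-0.88 ± 0.11), at 18.8 and 20.8 against 0.835 and 2.48, all under the filter signal. The E2F dimer partners Tfdp1 and Tfdp2 were lower on both days, with changes of -0.65 ± 0.10 and -0.66 ± 0.08 at 3 days and of -0.57 ± 0.10 and -0.36 ± 0.08 at 7 days. E2f3, an activator E2F, was the gene that was higher at 3 days (0.49 ± 0.10), and E2f5 was the gene that was higher at 7 days (0.24 ± 0.09, adjusted p = 0.0466), a call lost without the filter. At 3 days E2f5 was among the 4 lower genes (-0.24 ± 0.09, adjusted p = 0.0458), with both of its probe sets lower. At 7 days 1 of the 2 probe sets of E2f5 was higher, and so was 1 of 2 for Rbl2, which was not called.

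Among 9 genes for CDK activation and the turnover of cyclins and inhibitors, 4 were lower at 3 days (22.5% of all probe sets) and 2 at 7 days. The others did not pass at their brightest probe set. Cdk7 was among these at 3 days, although 2 of its 3 probe sets were higher. Ccnh was called lower at 3 days with 1 of its 3 probe sets lower. At 7 days 1 of 2 probe sets was lower for Cdc25a and for Fbxw7, which were not called. The 7-day count is near the 22.7% of all probe sets called lower and is no result about these genes. Cks1b, which helps the SCF ligase recognise p27, was at 893 and 1007 in MHM + GF and 261 and 246 with rcCHIL3 at 3 days (-1.82 ± 0.08), and it was lower at 7 days too (-1.25 ± 0.08). Skp2, the F-box protein that targets p27 for degradation, was lower at 3 days (-0.54 ± 0.09) and at 7 days (-0.47 ± 0.09). Fbxw7, the F-box protein for cyclin E, was lower at 3 days (-0.55 ± 0.10), and its 7-day value of -0.26 ± 0.10 did not pass.

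**Figure D4:**
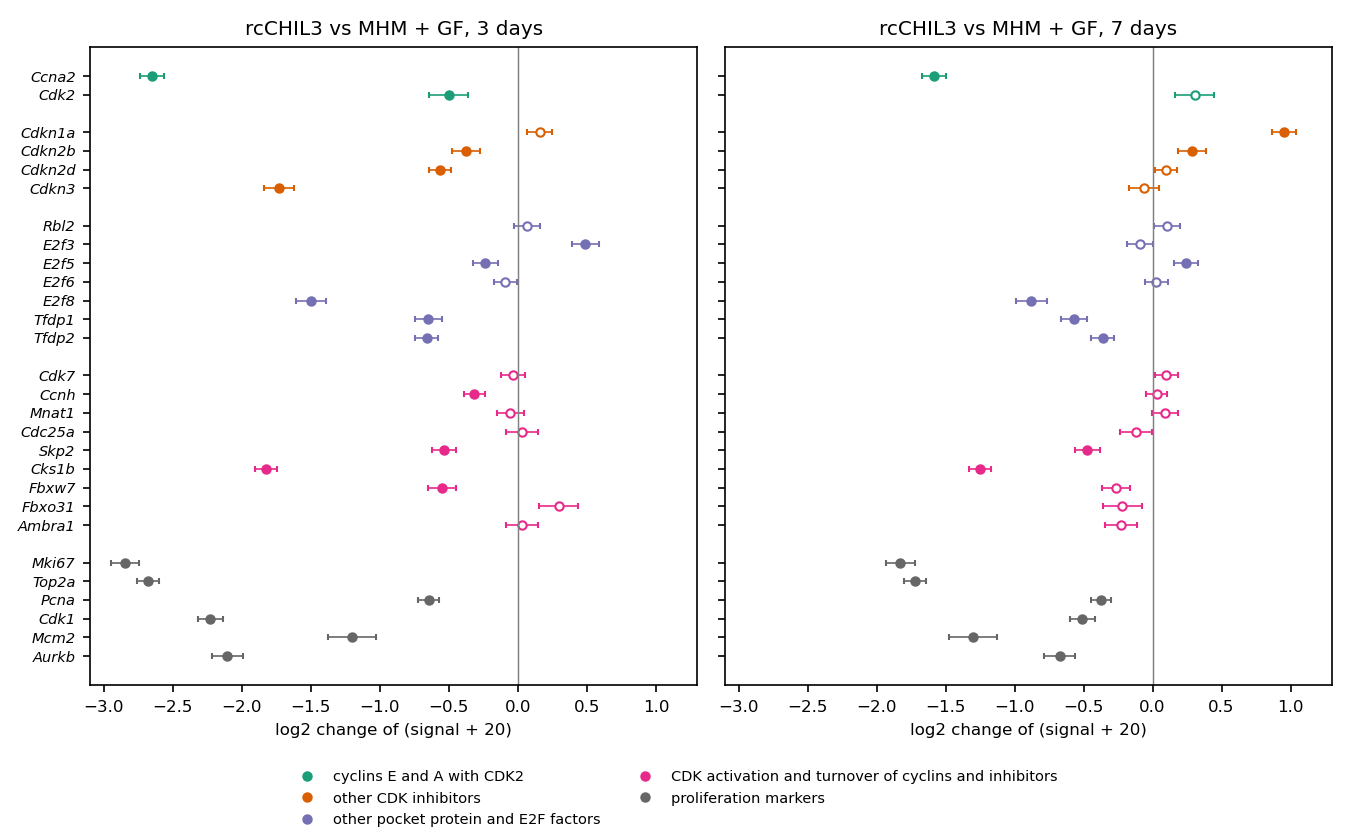
Log2 change of signal + 20 with rcCHIL3 at 3 days (left) and 7 days (right) for the other G1 and S phase entry genes and the proliferation markers past the filter, by role, with standard errors. Filled points passed an adjusted p of 0.05. Cdkn1a has the largest rise at 7 days (0.95), and Mki67 the largest drop on both days (-2.85 and -1.83).

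Proliferation markers and several cell type markers also differed between the groups, the latter not all in the same pattern. All 6 proliferation markers tested were lower with rcCHIL3 on both days, beside 22.5% and 22.7% of all probe sets, with medians of -2.17 at 3 days and -0.99 at 7 days. Aurkb had passed the filter through MHM + GF at 3 days alone. At 7 days it read 22.6 and 17.2 in MHM + GF against 5.20 and 4.72 with rcCHIL3, all under the filter signal. Mki67, a marker of cycling cells, was at 738 and 765 in MHM + GF at 3 days, 129 and 125 in MHM + GF at 7 days, 92.4 and 82.2 with rcCHIL3 at 3 days, and 25.7 and 17.6 with rcCHIL3 at 7 days. Top2a and the mitotic kinase Cdk1 had changes of -2.68 and -2.23 at 3 days and of -1.72 and -0.51 at 7 days. In Mki67, as in Ccnd1, the 3-day MHM + GF arrays were highest and the 7-day rcCHIL3 arrays lowest, whereas for Mcm2 the 2 rcCHIL3 groups overlapped.

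Summed signals of 5 astrocyte markers were 2172 to 2308 in MHM + GF at 3 days, 4276 to 4442 in MHM + GF at 7 days, 3884 to 4033 with rcCHIL3 at 3 days and 4909 to 5016 with rcCHIL3 at 7 days. Those of 3 oligodendrocyte progenitor markers were 2015 to 2022, 758 to 812, 1308 to 1359 and 657 to 667 in the same order. Those of the 4 oligodendrocyte markers were 1518 to 1543, 2805 to 2877, 2807 to 2850 and 3118 to 3284. The 2 ependymal markers summed to 74.4 to 81.3, 169 to 202, 131 to 132 and 397 to 410.2, highest with rcCHIL3 at 7 days. The 5 neuron markers summed to 1338 to 1383, 1709.5 to 1751, 1358 to 1376 and 1034 to 1154, lowest in that group. Summed signals of the neural stem and progenitor markers were 9491 to 9988, 9386 to 9503, 7704 to 8080 and 8640.3 to 8729.8, lower in both rcCHIL3 groups. Some of these sums rested largely on 1 bright gene. Across arrays, Map2 (neuron) read 896 to 1362, Mbp (oligodendrocyte) 1467 to 2801 and Olig1 (oligodendrocyte progenitor) 478 to 1637. The part of these marker shifts in the values of the cyclins, kinases and inhibitors was not tested.

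Genes with the most similar pattern were sought for Ccnd1, Ccnd2, Cdkn1c and Cdkn1b by the root mean square difference of log2 values over the 8 arrays, each gene centred on its own mean, among 8253 genes. For Ccnd1 these were Depdc1a (0.083), Cep55 (0.116), Hmmr (0.121), Pttg1 (0.145) and Cenpa (0.158), against a spread of Ccnd1 itself of 1.20. All 5 are known from mitosis. Depdc1a was at a mean of 198 in MHM + GF at 3 days and 6.53 with rcCHIL3 at 7 days, and Ccnd1 at 866 and 86.0. For Cdkn1c they were Timp4 (0.194), Adam12 (0.207), Anxa3 (0.209), Ckap2 (0.226) and Akap12 (0.252), with Ccnd1 at rank 13 (0.350), while in the Ccnd1 list Cdkn1c was at rank 47. For Ccnd2 they were Acot1 (0.094), Stmn1 (0.095), Tox3 (0.115), Prr36 (0.12) and Chd7 (0.130), against its own spread of 0.485, and Ccnd1 was at rank 8054 of that list. For Cdkn1b, whose own spread was 0.174, they were Zfp148 (0.050), Med16 (0.051), Nsmce4a (0.051), Rif1 (0.052) and Pnrc2 (0.052). The 2 D cyclins that changed most thus had different nearest genes on this scale. Among the nearest genes of Ccnd1, Depdc1a, Cep55 and Hmmr had group means under the filter signal outside MHM + GF at 3 days. So did Timp4, Adam12 and Anxa3 for Cdkn1c. At such low signals the offset matters, and whether these genes stay nearest with another offset was not tested.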

How the data were processed

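Total RNA from neurospheres was hybridised to Affymetrix arrays, 2 per group. The deposited intensities are MAS5 signals that the authors made with Affymetrix Expression Console 1.1 according to the labels (the methods name GCOS). Here each array was rescaled to an average of 100 (deposited averages 267 to 317), 20 was added and log2 taken. Array number limits the precision, and 30.1% to 31.5% of probe sets reached 50. After 64 control probe sets were left out, those at 50 or more on at least 2 arrays were tested with limma 3.58.1 in R 4.3.3 (4 group means, intensity trend, 4 residual degrees of freedom, two-sided p, Benjamini-Hochberg adjustment). A gene was called at its brightest kept probe set. The fit was tested on simulated data. Tables were made with pandas 2.3.3 and numpy 2.4.6, and plots with matplotlib 3.10.9, under Python 3.11.15.

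Genes came from the platform annotation, in which 34958 probe sets have 1 symbol, 932 several and 9211 none. All 10 genes are named, along with, in each role group of the G1 list, up to 3 with the largest change and any called against the majority of their group, and the 5 most similar genes for 4 of the 10. Members and lists were chosen with earlier results of these data known. The alternatives were other filters, offsets and scalings, the mean over probe sets, no trend, a replicate block, the methods' t-test and leaving out each array. The pair of rcCHIL3 at 7 days and MHM + GF at 3 days, needed for the order of levels, was added after the values were seen.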

Additional observations from a re-analysis of the deposited data

Results flagged for a closer look

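The difference between rcCHIL3 and MHM + GF changed between 3 and 7 days for 6 of the 10 genes, by a test of that change in limma across all probe sets, in which 18.7% of all probe sets were higher and 22.7% lower. For Cdkn1c the change was 2.98 ± 0.14 on the log2 scale (adjusted p = 3.63e-08), from 7.34-fold lower at 3 days to higher at 7 days. Between the days Cdkn1c fell by 2.83 in MHM + GF and did not pass in rcCHIL3 (0.15, limma adjusted p = 0.240). Its 7-day rise with rcCHIL3 came from a single probe set and was 0.30 without the second 7-day MHM + GF array. For Ccnd1 the change was 2.02 ± 0.10 (adjusted p = 8.10e-08). It was 0.71 ± 0.14 for Cdkn2c (adjusted p = 0.0016), 0.64 ± 0.14 for Rbl1 (adjusted p = 0.00334) and 0.61 ± 0.15 for Ccnd3 (adjusted p = 0.00627). For Ccnd2 the change was in the other direction, -0.74 ± 0.09 (adjusted p = 7.26e-05). All 6 passed in each of the 19 alternative settings in which this test could be run.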

How the results depend on the processing

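Of 1290 values of single genes under the alternatives, 1207 kept their direction and side of the threshold, 60 lost the call, 9 gained one and 14 changed sign, all 14 in values that had not passed. The 1 gene higher at 3 days, Rb1, became 0 with no filter, on the deposited scale, with quantile normalization, with median centring, without the trend and with the adjusted methods' t-test. That adjusted t-test also left 0 higher and 0 lower at 7 days, 0 higher and 2 lower over time in MHM + GF, 0 and 0 over time in rcCHIL3, and 1 lower for rcCHIL3 at 3 days against MHM + GF at 7 days; unadjusted it gave 1 higher and 7 lower at 7 days and 3 higher and 5 lower over time in rcCHIL3. It called 21 higher and 16 lower of all 15679 probe sets at 7 days. The deposited scale left 0 higher over time in MHM + GF, and no filter left 1 higher over time in rcCHIL3. For rcCHIL3 at 3 days against MHM + GF at 7 days, 1 gene (Cdkn1c) was higher with a floor of 10, quantile normalization, median centring or the mean over probe sets.

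Leaving out each array in turn gave 0 to 1 higher and 8 to 9 lower at 3 days, 1 to 3 and 7 at 7 days, 2 to 3 and 6 to 7 over time in MHM + GF, 1 to 2 and 4 over time in rcCHIL3, 0 to 1 and 5 for rcCHIL3 at 3 days against MHM + GF at 7 days, and 5 and 1 for the interaction. Sign changes came with leaving out an array for Cdkn2c over time in rcCHIL3 (-0.041 to 0.18), for rcCHIL3 at 3 days against MHM + GF at 7 days in Ccnd3 (-0.16 to 0.043) and Cdk4 (-0.079 to 0.022), and for the interaction in Cdk4 (-0.13 to 0.098). With the mean over probe sets, rcCHIL3 at 3 days against MHM + GF at 7 days was 0.056 for Ccnd1 and 0.064 for Cdk4, and the interaction was 0.048 for Cdk4 and 0.16 for Cdk6. In the interaction Cdk4 was also 0.15 on the deposited scale and 0.00069 with median centring, Cdk6 0.039 with an offset of 50, and Cdkn1b 0.085 on the deposited scale. The cause was not tested.

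Deviations of same-numbered arrays from their group means correlated at -0.01 to 0.10, which with 2 arrays a group cannot exclude a pairing. A replicate block left 9 lower and 1 higher at 3 days and 7 lower and 2 higher at 7 days, with no call changed. With 2 arrays a group and dim probe sets near background, small changes could not be resolved.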
